A study of Mus musculus with 6 samples.

Results

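Calponins, transgelins, tropomyosins and caldesmon are proteins that bind along actin filaments. The mRNA levels of 10 genes encoding them were compared between Rnf40+/+ and Rnf40-/- mouse embryonic fibroblasts (MEFs), which are cells grown out of mouse embryos. The genes were selected by their symbols, Cnn1, Cnn2, Cnn3, Tagln, Tagln2, Tpm1, Tpm2, Tpm3, Tpm4 and Cald1, and all 10 were present among the 29955 genes of the deposited table and had enough reads to be tested. RNF40 is a subunit of the ubiquitin ligase that attaches a single ubiquitin to histone H2B. The knockout MEFs came from embryos homozygous for an Rnf40 allele in which exons 3 and 4 lie between loxP sites. They carried a tamoxifen-inducible Cre recombinase, CreERT2, expressed from the ubiquitously active Rosa26 locus. Deletion was induced with 250 nM 4-hydroxytamoxifen (4-OHT) for 5 days, followed by 3 days without it. All cells were primary MEFs of passage 3, and the sources used here do not state whether the Rnf40+/+ cells carried the loxP sites or Cre, or whether they received 4-OHT. The genotype and the treatment therefore cannot be told apart in this comparison. RNA-seq was performed on 3 libraries per genotype, and nothing in the labels says whether these were separate embryos or separate dishes, so that p values measure the spread between libraries, which may be technical.

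In smooth muscle and in contractile fibroblasts, filaments of actin and myosin II generate tension. Tropomyosins are coiled-coil proteins that polymerize along the groove of the actin filament and determine which other proteins can bind it. Caldesmon binds actin, myosin and tropomyosin and restrains the myosin motor, while calponins and the related transgelins carry a calponin homology (CH) domain and bundle or stabilize actin filaments. Cnn1 and Tagln, also called SM22 alpha, are classical markers of smooth muscle and are also expressed by activated fibroblasts and myofibroblasts. In contrast, Cnn3, Tagln2, Tpm3 and Tpm4 are expressed in many non-muscle cells. Many smooth muscle genes are targets of serum response factor (SRF), which binds a DNA element named the CArG box and works together with the myocardin family of coactivators.

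The libraries held between 17053436 and 26344170 reads on genes. Values are given as normalized counts, in which each library was scaled by its own size factor, and 3 reads corresponded to a normalized count of 2.40 to 3.58. The targeted gene Rnf40 was at 1278, 1195 and 1096 in Rnf40+/+ MEFs against 439, 519 and 487 in Rnf40-/- MEFs, so that 40.5% of its mean was left. The value is for the gene as a whole and does not separate the deleted exons 3 and 4 from the rest. It therefore does not measure how complete the deletion was. By western blot, the study reported effective loss of RNF40 and of ubiquitinated H2B. Of the fibroblast genes, Col1a2 was at 116406 ± 11237 normalized counts in Rnf40+/+ and 24166 ± 404 in Rnf40-/- MEFs (SD, n = 3 each). Not every fibroblast gene was abundant, as Lum had between 66.1 and 248. Myod1, which defines skeletal myoblasts, had no read in any library. Single Rnf40+/+ libraries stood apart for some genes. Ddx3y, a gene of the Y chromosome, had 81.2 normalized counts in Rnf40+/+ replicate 1 and between 0 and 7.14 in the other 5 libraries, while Xist, which is expressed from the inactive X chromosome, was high in all 6 (7178 to 9616). Des, which encodes the muscle intermediate filament protein desmin, had 431 normalized counts in the same library and between 27.1 and 126 in the others. Rnf40+/+ replicate 3 was highest for other genes. It had 7440 normalized counts of the macrophage gene Lyz2, against 3945 and 4557 in the other Rnf40+/+ libraries. For Lum it had 248, against 87.2 and 102. For several of the genes and ratios described, values without Rnf40+/+ replicate 1 are also given.

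All 10 genes were lower after Rnf40 deletion and none was higher (adjusted p under 0.05, limma with Benjamini-Hochberg adjustment over 16378 genes). For comparison, 24.1% of all genes tested were lower and 23.3% higher by the same rule. Lower were 32.2% of the 2139 genes with a mean over all 6 libraries of at least 2000 normalized counts. All members lie in this range, but Cnn1, with a mean of 276 in Rnf40-/- MEFs, does so only through its Rnf40+/+ level. For each of the 10 genes, every Rnf40-/- library was below every Rnf40+/+ library, which was the case for 28.7% of all genes tested. The falls differed widely in size. Log2 fold changes ranged from -3.99 for Cnn1 to -0.24 for Tpm3 with a median of -1.04, while the median over all genes tested was -0.0035. The log2 fold changes of 5 genes, namely Cnn1, Tagln, Tpm2, Tagln2 and Cnn2, were below -1 with an adjusted p under 0.05, as were 5.72% of all genes tested. The criteria of the study (mean above 15, unadjusted p under 0.05 and a log2 change of more than 1 in size) took the same 5 members and 5.7% of all genes tested as lower. Together the 10 genes took 1.08% ± 0.0479 of all normalized counts in Rnf40+/+ MEFs and 0.587% ± 0.00652 in Rnf40-/- MEFs (SD, n = 3 each). In bulk RNA, fewer cells expressing a gene and less RNA per cell cannot be told apart.

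**Figure D1:**
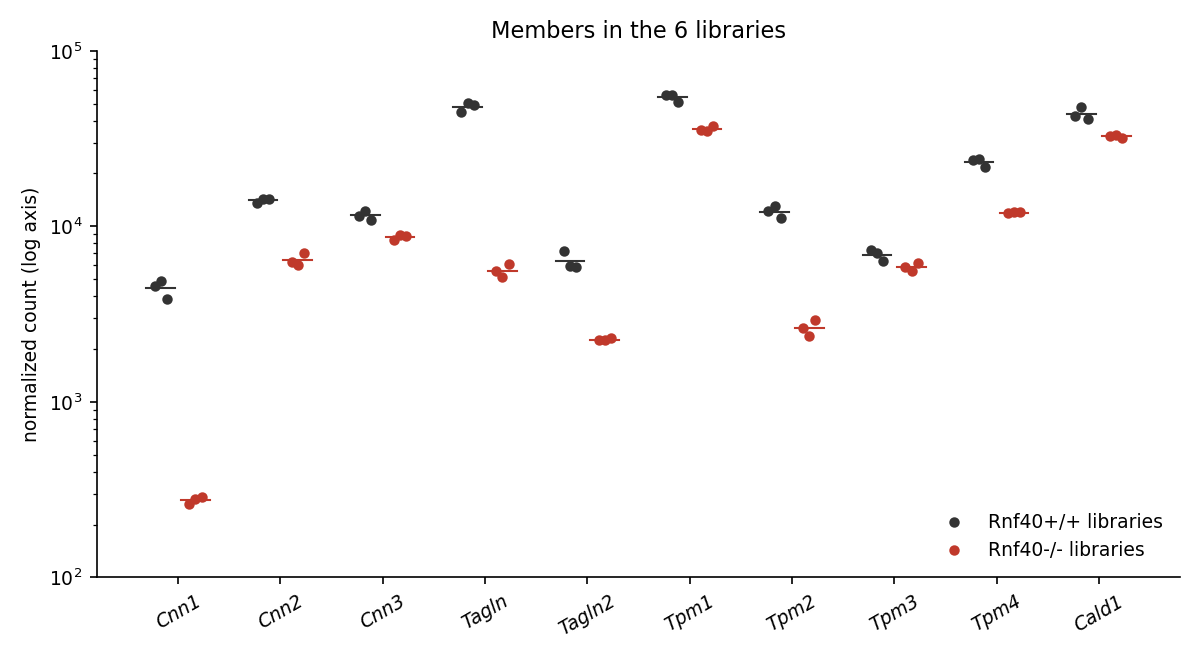
Normalized counts (log axis) of the 10 genes in each library, Rnf40+/+ in black and Rnf40-/- in red, with a line at the mean of 3 libraries. For every gene the 3 Rnf40-/- points lie below the 3 Rnf40+/+ points, with the widest gap for Cnn1 and the narrowest for Tpm3.

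The calponins were examined first. Cnn1 encodes calponin 1, the smooth muscle form that inhibits the ATPase activity of actomyosin. The gene (ENSMUSG00000001349) spans positions 21903725 to 21914074 of chromosome 9 (mm9, plus strand). In Rnf40+/+ MEFs Cnn1 reached 4559.6, 4856 and 3855 normalized counts, against 263, 279 and 286 in Rnf40-/- MEFs. The highest Rnf40-/- value was thus far below the lowest Rnf40+/+ value, although Cnn1 was still clearly detected, with at least 258 reads in each Rnf40-/- library. The means were 4423 ± 514 and 276 ± 11.7 (SD, n = 3 each), which is 16.0-fold lower and leaves 6.24% of Cnn1. On the log2 scale the change was -3.99 (95% interval -4.19 to -3.80, adjusted p = 2.2e-10 from limma), and by size this was rank 4 among the falls of all 16378 genes tested.

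Cnn2 encodes calponin 2, a form found in smooth muscle as well as in non-muscle cells such as fibroblasts and leukocytes. It lies on chromosome 10 of mm9 from 79451329 to 79458807 (ENSMUSG00000004665, plus strand). The Rnf40+/+ libraries had 13617, 14274 and 14282 normalized counts of Cnn2, against 6232, 6041 and 7011 in the Rnf40-/- libraries. The 3 Rnf40+/+ values were close together, and 45.7% of their mean was left in Rnf40-/- MEFs. This was a log2 fold change of -1.13 (95% interval -1.29 to -0.98, adjusted p = 2.09e-07 from limma).

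Cnn3 encodes calponin 3, an acidic form with broad expression outside muscle. The gene (ENSMUSG00000053931) spans positions 121129459 to 121161123 of chromosome 3 (mm9, plus strand). Its normalized counts were 11468, 12234 and 10861 in Rnf40+/+ libraries and 8386, 8966 and 8841 in Rnf40-/- libraries. The groups did not overlap, but 75.8% of the Rnf40+/+ level was left, and the log2 fold change was -0.40 (95% interval -0.55 to -0.25, adjusted p = 0.000453 from limma).

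Of the transgelins, Tagln encodes transgelin, one of the most abundant proteins of differentiated smooth muscle. Tagln (ENSMUSG00000032085) spans positions 45737711 to 45744141 of chromosome 9 (mm9, minus strand). Its level was 44612, 50147 and 49045 normalized counts in Rnf40+/+ MEFs, whereas Rnf40-/- MEFs had 5555, 5142 and 6064. In Rnf40+/+ MEFs Tagln was thus among the most abundant transcripts, at rank 24 of the genes tested by mean normalized count, a rank that is not corrected for length. The means were 47935 ± 2929.7 and 5587 ± 462 (SD, n = 3 each), or 8.58-fold lower in Rnf40-/- MEFs. This gave a log2 fold change of -3.10 (95% interval -3.27 to -2.93, adjusted p = 3.5e-10 from limma), rank 31 among all falls.

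Tagln2 encodes transgelin 2, the form that prevails outside smooth muscle. It spans positions 174430178 to 174437511 of chromosome 1 (ENSMUSG00000026547, mm9, plus strand). Normalized counts of Tagln2 were 7234, 5929 and 5870.3 in Rnf40+/+ libraries and 2238, 2238 and 2308 in Rnf40-/- libraries. The high value belonged to Rnf40+/+ replicate 1, and the 3 Rnf40-/- values were nearly equal. The change of Tagln2 on the log2 scale was -1.48 (95% interval -1.66 to -1.30, adjusted p = 7.59e-08 from limma). When Rnf40+/+ replicate 1 was left out it was -1.38, with an adjusted p of 1.06e-08 from limma.

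The tropomyosins are encoded by 4 genes, each of which gives rise to several isoforms by alternative promoters and splicing. Since the table holds 1 value per gene, isoforms were not separated. Tpm1 and Tpm2 encode the alpha and beta chains of striated and smooth muscle as well as long non-muscle isoforms. Tpm1 (ENSMUSG00000032366, minus strand of chromosome 9 of mm9, 66870397 to 66897213) had 56159, 55783 and 51068 normalized counts in Rnf40+/+ libraries and 35246, 34815 and 37508 in Rnf40-/- libraries. Its groups were clearly apart, yet Tpm1 kept 66.0% of its Rnf40+/+ mean. This corresponds to a log2 fold change of -0.60 (95% interval -0.77 to -0.43, adjusted p = 6.87e-05 from limma). Tpm2 (ENSMUSG00000028464, minus strand of chromosome 4, 43527583 to 43536637) had 12255, 13045 and 11086 normalized counts in Rnf40+/+ libraries and 2622, 2385 and 2933 in Rnf40-/- libraries. This left 21.8% of its Rnf40+/+ level, the least among the tropomyosins, and the log2 fold change was -2.20 (95% interval -2.38 to -2.01, adjusted p = 7.63e-09 from limma).

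Tpm3 and Tpm4 encode tropomyosins that are prominent in the stress fibers and the cell cortex of non-muscle cells. Tpm4 (ENSMUSG00000031799, plus strand of chromosome 8 of mm9, 74658874 to 74677041) had 23835, 24127 and 21878 normalized counts in Rnf40+/+ libraries and 11897, 11988 and 12035 in Rnf40-/- libraries. The Rnf40-/- values of Tpm4 were nearly equal, with a coefficient of variation of 0.583%, and 51.4% of the Rnf40+/+ mean was left. The log2 fold change was -0.96 (95% interval -1.10 to -0.81, adjusted p = 4.83e-07 from limma).

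Tpm3 (ENSMUSG00000027940, plus strand of chromosome 3 of mm9, 89876571 to 89904824) had 7304, 7051 and 6328 normalized counts in Rnf40+/+ libraries and 5825, 5539.7 and 6171 in Rnf40-/- libraries. The highest Rnf40-/- value was only a little below the lowest Rnf40+/+ value, and the log2 fold change was -0.24 (95% interval -0.39 to -0.08, adjusted p = 0.0176 from limma). This call was lost, with the same direction, when any 1 of 4 libraries was left out: Rnf40+/+ replicate 1 (log2 fold change -0.19, adjusted p = 0.0617 from limma), Rnf40+/+ replicate 2 (-0.22, 0.0507), Rnf40-/- replicate 1 (-0.23, 0.0676) and Rnf40-/- replicate 2 (-0.20, 0.0887). In addition, 40.0% of the windows of 50 bases in annotated Tpm3 transcripts were also found in Tpm3-rs7, a closely similar gene, and the sources used here do not state how reads matching both were counted. No such window was shared with another coding gene for Cnn1, Cnn2, Cnn3, Tagln, Tpm1, Tpm2, Tpm4 or Cald1, and 0.75% of windows were shared for Tagln2.

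Cald1 encodes caldesmon, of which fibroblasts express the short, non-muscle form and smooth muscle a longer one from the same gene. Cald1 (ENSMUSG00000029761) spans positions 34548500 to 34725473 of chromosome 6 (mm9, plus strand). Its normalized counts were 42717, 47622 and 40641 in Rnf40+/+ libraries and 32714, 33252 and 31714 in Rnf40-/- libraries. Despite its high level the fall was small, with 74.6% of the Rnf40+/+ mean left and a log2 fold change of -0.42 (95% interval -0.60 to -0.24, adjusted p = 0.00112 from limma).

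**Figure D2:**
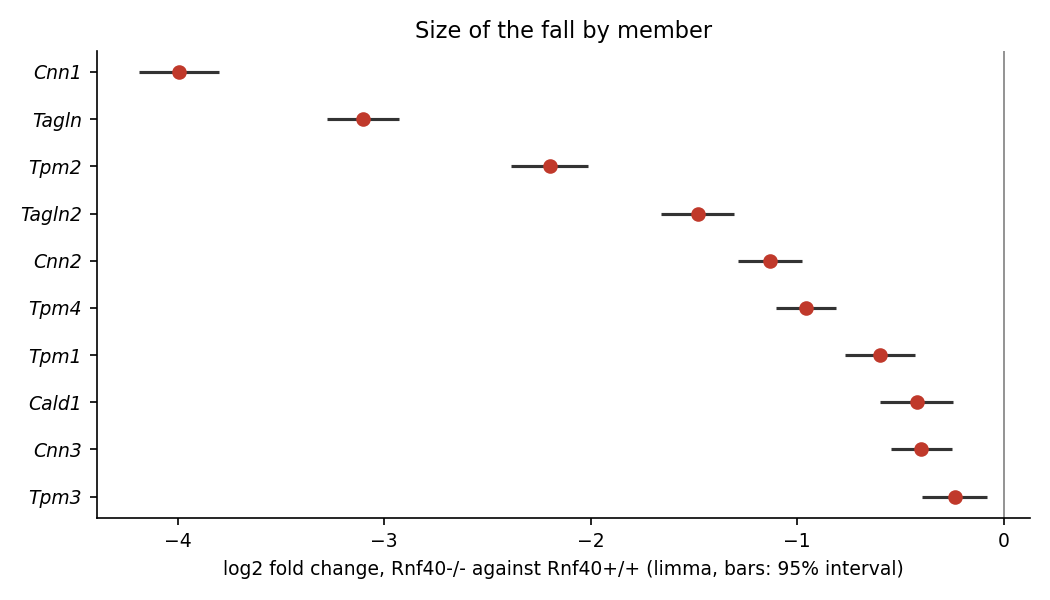
Log2 fold change of each gene in Rnf40-/- against Rnf40+/+ MEFs (points) with its 95% interval from limma (bars), ordered by size. The intervals of Cnn1 and Tagln lie below -2.9 and that of Tpm2 below -2.0, while the intervals of Tpm1, Cald1, Cnn3 and Tpm3 lie between -0.77 and -0.08.

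To ask whether members of the same family fell to different extents, the log2 ratio of the normalized counts of paralogs was taken within each library, so that the size factor of the library cancels. The ratio of Tagln to Tagln2 was 2.62, 3.08 and 3.06 on the log2 scale in Rnf40+/+ libraries and 1.31, 1.20 and 1.39 in Rnf40-/- libraries. The means differed by -1.62 on the log2 scale, and the low Rnf40+/+ value was that of replicate 1, without which the difference was -1.77. The ratio of Cnn1 to Cnn3 was -1.33, -1.33 and -1.49 in Rnf40+/+ libraries and -4.99, -5.00 and -4.94 in Rnf40-/- libraries, a difference of -3.59. The log2 ratio of Cnn2 to Cnn3 was 0.29 ± 0.09 and -0.44 ± 0.12 (mean log2 ratio ± SD, n = 3 each), a difference of -0.73. Among tropomyosins, the ratio of Tpm2 to Tpm3 was 0.75, 0.89 and 0.81 in Rnf40+/+ libraries and -1.15, -1.22 and -1.07 in Rnf40-/- libraries, a difference of -1.96. The log2 ratio of Tpm1 to Tpm4 was 1.22 ± 0.01 in Rnf40+/+ and 1.58 ± 0.05 in Rnf40-/- libraries (SD, n = 3 each), a difference of 0.36 in the opposite direction. For all 5 pairs the ratios of the genotypes did not overlap between libraries, but with 3 libraries against 3 the exact two-sided permutation test cannot give a p below 0.1, and each of the 5 pairs had this p (0.1 after Benjamini-Hochberg adjustment over the 5 pairs).

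**Figure D3:**
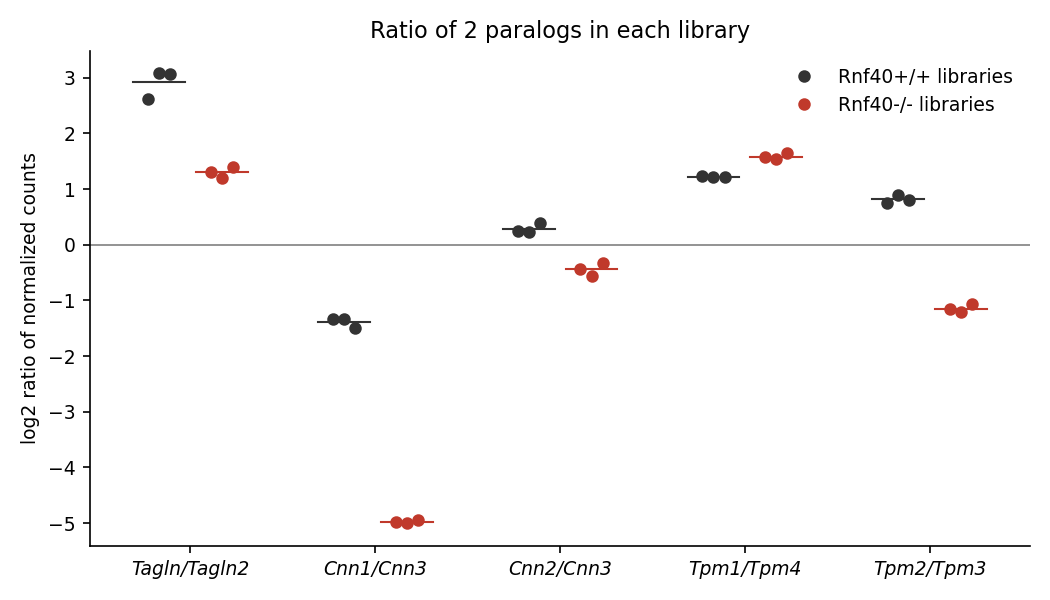
Log2 ratio of the normalized counts of 2 paralogs in each library, Rnf40+/+ in black and Rnf40-/- in red, with a line at the mean. Tpm1/Tpm4 is higher in Rnf40-/- libraries and the other ratios are lower, and no pair overlaps between genotypes.

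Levels of different genes were compared per kilobase (kb) of the longest annotated coding transcript, which is an approximation for genes with several isoforms. On this scale Tagln was highest in Rnf40+/+ MEFs, at 30224 ± 1847 normalized counts per kb (SD, n = 3), and it was followed by Tpm1 (18802 ± 982), Tpm4 (10939.8 ± 574) and Cald1 (9139.6 ± 750.4). Cnn3 (5752 ± 344), Cnn2 (5714 ± 155) and Tpm2 (5576 ± 453) came next and could not be ordered, since their values overlapped between libraries. Lower still were Tagln2 (4000.1 ± 486), Tpm3 (3087 ± 227) and Cnn1 (1868 ± 217).

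In Rnf40-/- MEFs the order was different. Tpm1 was highest at 12407 ± 501 normalized counts per kb (SD, n = 3), then Cald1 (6816 ± 163), Tpm4 (5627 ± 32.8) and Cnn3 (4359 ± 153), and Tagln came after these at 3523 ± 291. Tpm3 (2618 ± 142) and Cnn2 (2613 ± 209) overlapped, and they were followed by Tagln2 (1426 ± 25.4), Tpm2 (1217 ± 126) and Cnn1 (117 ± 4.96). Within the tropomyosins, the share of Tpm2 in the summed counts per kb was 14.5% ± 0.488 in Rnf40+/+ and 5.56% ± 0.386 in Rnf40-/- MEFs, while that of Tpm1 was 49.0% ± 0.403 and 56.7% ± 0.304 and that of Tpm3 was 8.03% ± 0.207 and 12.0% ± 0.259 (SD, n = 3 each). Tpm4 had a share of 28.5% ± 0.162 in Rnf40+/+ and 25.7% ± 0.827 in Rnf40-/- MEFs. Within the calponins, Cnn1 made up 14.0% ± 1.15 of the summed counts per kb in Rnf40+/+ and 1.64% ± 0.0225 in Rnf40-/- MEFs, and Cnn3 43.1% ± 0.829 and 61.5% ± 1.87.

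**Figure D4:**
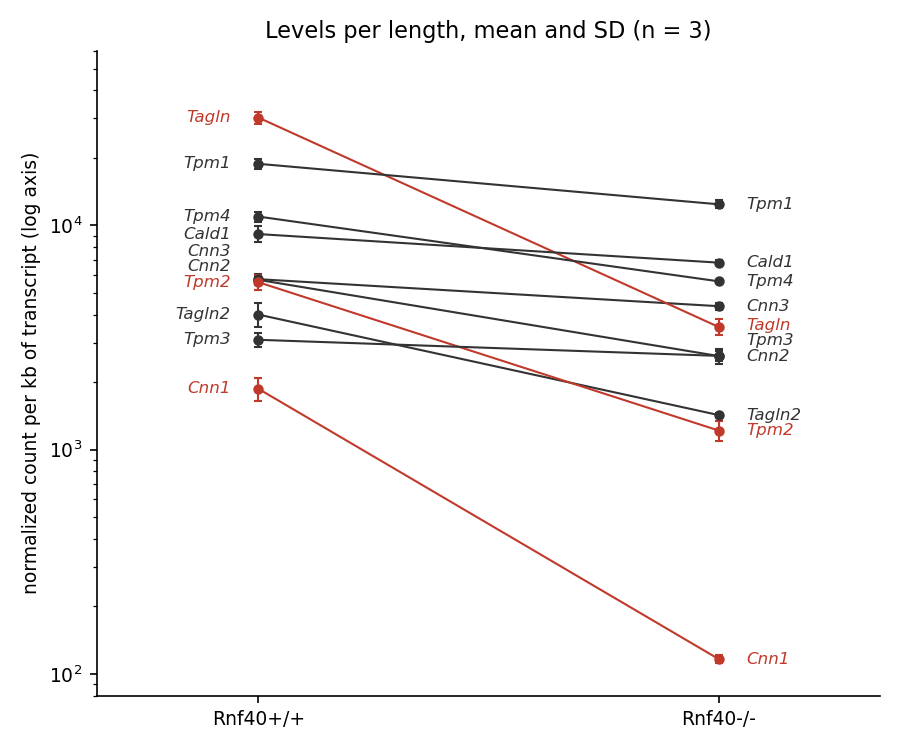
Normalized counts per kb of transcript (log axis) of each gene, mean with SD of 3 libraries, in Rnf40+/+ (left) and Rnf40-/- MEFs (right). Red lines mark Tagln, Tpm2 and Cnn1, the 3 genes with the largest falls, and Tagln, first in Rnf40+/+ MEFs, comes after Tpm1, Cald1, Tpm4 and Cnn3 in Rnf40-/- MEFs.

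The promoter windows of these genes were inspected for short sequence elements. RefSeq promoters (build GRCm38.p6, here the 250 bases before each annotated start) were matched for 9 of the 10 genes, with 11 windows in all because some genes have more than 1 start, and Tagln had no entry. The CArG box, searched without mismatch on both strands (it reads as its own kind on the opposite strand), was found in 1 of the 11 windows, that of Cnn2, at 56 to 47 bases before the start, where it reads CCTTATAAGG. Of all 32851 promoter windows of this length, 1.47% held it. The MCAT element bound by TEAD factors, CATTCC on either strand, was found in the windows of Cald1, Tagln2 and Tpm1 (12.6% of all windows), and the GC box GGGCGG on either strand in windows of Cnn2, Cnn3, Tagln2, Tpm1, Tpm2, Tpm3 and Tpm4 (32.7% of all windows). TATAAA on either strand was found for Cald1 (12.4% of all windows). These matches describe the letters of short windows and say nothing on elements farther away or in introns. The 150 bases before the start are shown for the 2 genes with the largest falls that have an entry, Cnn1 and Tpm2, and for Cnn2 with its CArG box. Capitals mark matches to the searched elements, and all sequences are written 5′ to 3′ in the direction of transcription.
Cnn1, chr9:22099103-22099252, plus strand: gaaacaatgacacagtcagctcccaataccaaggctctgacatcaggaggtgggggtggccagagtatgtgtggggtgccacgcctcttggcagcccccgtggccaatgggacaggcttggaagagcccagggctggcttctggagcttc
Cnn2, chr10:79988450-79988599, plus strand: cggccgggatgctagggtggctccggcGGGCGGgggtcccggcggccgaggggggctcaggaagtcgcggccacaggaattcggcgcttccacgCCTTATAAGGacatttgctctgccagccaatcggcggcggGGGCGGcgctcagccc
Tpm2, chr4:43523555-43523704, minus strand: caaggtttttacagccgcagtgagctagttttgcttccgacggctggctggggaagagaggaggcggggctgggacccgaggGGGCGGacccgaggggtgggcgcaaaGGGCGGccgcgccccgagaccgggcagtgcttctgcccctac
The window of Cnn1 held none of the searched elements. Whether any of these elements had a part in the falls was not tested.

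The genes with the most similar profile over the 6 libraries were identified among 11540 other genes with a mean of at least 100 normalized counts, by the root mean square distance of log2 values relative to the Rnf40+/+ mean. For Cnn1 these were Actg2 (distance 0.14), which encodes smooth muscle gamma actin, Myl9 (0.18), which encodes a regulatory light chain of smooth muscle and non-muscle myosin II, and Fam150a (0.33). For Tpm2 they were Myh11 (0.073), the smooth muscle myosin heavy chain, the transcript AK188772 (0.089) and Acta2 (0.10), smooth muscle alpha actin. Actg2, Myl9, Myh11 and Acta2 all belong to the contractile genes described next. For Tagln they were Ube2c (0.20), Npas4 (0.22) and Mki67 (0.22), of which Ube2c and Mki67 are expressed in dividing cells, and for Tagln2 they were Smc2, Zwilch and Tilz3b. The nearest gene to Cald1 was Vcl (0.018), which encodes vinculin, an actin-linked protein of focal adhesions, and the nearest to Tpm3 was Vim (0.027), which encodes the intermediate filament protein vimentin. For Cnn3, Ggta1, Mical2 and Myadm were nearest, for Cnn2 Gpx1, Emilin1 and Cd81, for Tpm1 Zfp503, Zc3h12c and Basp1, and for Tpm4 AK006119, Sumf2 and Chst14. Distances over 6 libraries mostly reflect the size of the genotype difference.

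Other genes of the contractile apparatus were examined as lists. These were chosen with earlier results of these data known, so their counts describe the listed genes and are no independent test. In a list of 13 smooth muscle contractile genes, 12 were lower, none was higher and 1 was not called, with a median log2 fold change of -2.08 (limma, adjusted p under 0.05). Over all genes tested, 24.1% were lower and 23.3% higher. Actg2 was at 4396 ± 318 in Rnf40+/+ and 307 ± 42.0 in Rnf40-/- MEFs (normalized counts, SD, n = 3 each), with a log2 fold change of -3.84 (adjusted p = 3.5e-10 from limma). Myl9 had the same log2 fold change of -3.84, and that of Kcnmb1, which encodes the beta subunit of the large-conductance potassium channel of smooth muscle, was -3.54 (adjusted p = 8.55e-07 from limma). Des had a log2 fold change of -2.38 (adjusted p = 0.000486 from limma), and it was -1.77 with Rnf40+/+ replicate 1 left out, where Des was high. The gene not called was Ppp1r12b, with a log2 fold change of 0.22 (adjusted p = 0.266 from limma).

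Tropomodulins and leiomodins cap or nucleate tropomyosin-coated actin filaments, and troponins sit on tropomyosin in striated muscle. Of 15 genes of these families, 8 had too few reads to be tested, namely Tmod4, Lmod2, Lmod3, Tnnt1, Tnnt3, Tnni1, Tnni2 and Tnnc2. Of the 7 genes tested, 3 were lower, 1 was higher and 3 were not called, with a median log2 fold change of 0.015. Among all genes tested, the shares were 24.1% lower and 23.3% higher. Lmod1, the leiomodin of smooth muscle, was at 1965 ± 140 in Rnf40+/+ and 289 ± 36.6 in Rnf40-/- MEFs (normalized counts, SD, n = 3 each), with a log2 fold change of -2.77 (adjusted p = 6.09e-09 from limma). Tnnc1, encoding the slow and cardiac troponin C, was lower at a low level, from 62.2 ± 5.58 to 6.52 ± 4.28 normalized counts (log2 fold change -3.22, adjusted p = 4.92e-05 from limma), as was Tnni3 (-1.11, adjusted p = 0.0156), whose call was lost without Rnf40+/+ replicate 1, Rnf40-/- replicate 1 or Rnf40-/- replicate 3 (the highest adjusted p was 0.0608). The gene that rose was Tmod3, the tropomodulin expressed in many tissues, with 2132, 2355 and 2039.5 normalized counts in Rnf40+/+ libraries and 3249.7, 3215 and 3079 in Rnf40-/- libraries (log2 fold change 0.55, adjusted p = 4.91e-05 from limma). Thus Tmod3 was higher while all 4 tropomyosins were lower.

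Other actin-binding proteins with CH domains did not move in a single direction. Of 17 genes tested, 8 were lower, 4 were higher and 5 were not called, with a median log2 fold change of -0.27. The shares over all genes tested were 24.1% lower and 23.3% higher, so the higher calls were about as frequent as elsewhere. The lower call of Parvb was lost when any 1 of 4 libraries was left out, that of Plec when any 1 of 2 was, and the higher call of Ehbp1 when any 1 of 4 was. With all libraries Lcp1 was not called (log2 fold change -0.35, adjusted p = 0.132 from limma), and its highest value, 533 normalized counts, was that of Rnf40+/+ replicate 3. Without Rnf40+/+ replicate 1, Lcp1 was called lower (-0.55, adjusted p = 0.00696 from limma). Over all omissions of 1 library, its log2 fold change ranged from -0.55 to -0.13, with a highest adjusted p of 0.48 from limma. Flna, which encodes the actin crosslinker filamin A, was at 47841 ± 1748 in Rnf40+/+ and 16186 ± 165 in Rnf40-/- MEFs (normalized counts, SD, n = 3 each), with a log2 fold change of -1.56 (adjusted p = 1.66e-08 from limma). Mical1, an actin-oxidizing enzyme, had a log2 fold change of -0.93 (adjusted p = 3.52e-06 from limma), and that of Actn3, which was low throughout, was -1.82 (adjusted p = 0.00806 from limma) and -1.41 when Rnf40+/+ replicate 1, its highest library, was left out. Pls1, encoding the bundling protein plastin 1, rose from 9.97 ± 12.1 to 47.1 ± 11.6 normalized counts (log2 fold change 2.70, adjusted p = 0.00392 from limma), with 23.9 normalized counts in Rnf40+/+ replicate 1 against 2.04 and 3.99 in the other two Rnf40+/+ libraries, and by 3.59 on the log2 scale without that library.

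SRF and its partners were examined as the factors of the CArG box. Of 7 genes, 2 were lower, 1 was higher and 4 were not called, with a median log2 fold change of -0.18. Calls were thus about as frequent as over all genes tested, of which 24.1% were lower and 23.3% higher. Srf itself had 1673, 1637 and 1643 normalized counts in Rnf40+/+ libraries and 1105, 1091 and 1127 in Rnf40-/- libraries, a log2 fold change of -0.58 (adjusted p = 1.67e-05 from limma). Elk1, a ternary complex factor, had a log2 fold change of -0.47 (adjusted p = 0.00103 from limma), and Mkl2, which encodes the coactivator MRTF-B, one of 0.43 (adjusted p = 0.000257 from limma). Myocd, encoding myocardin, was low, at 11.7 ± 5.35 normalized counts in Rnf40+/+ and 23.5 ± 11.2 in Rnf40-/- MEFs (SD, n = 3 each). Its log2 fold change of 0.95 missed the threshold (adjusted p = 0.12 from limma).

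**Figure D5:**
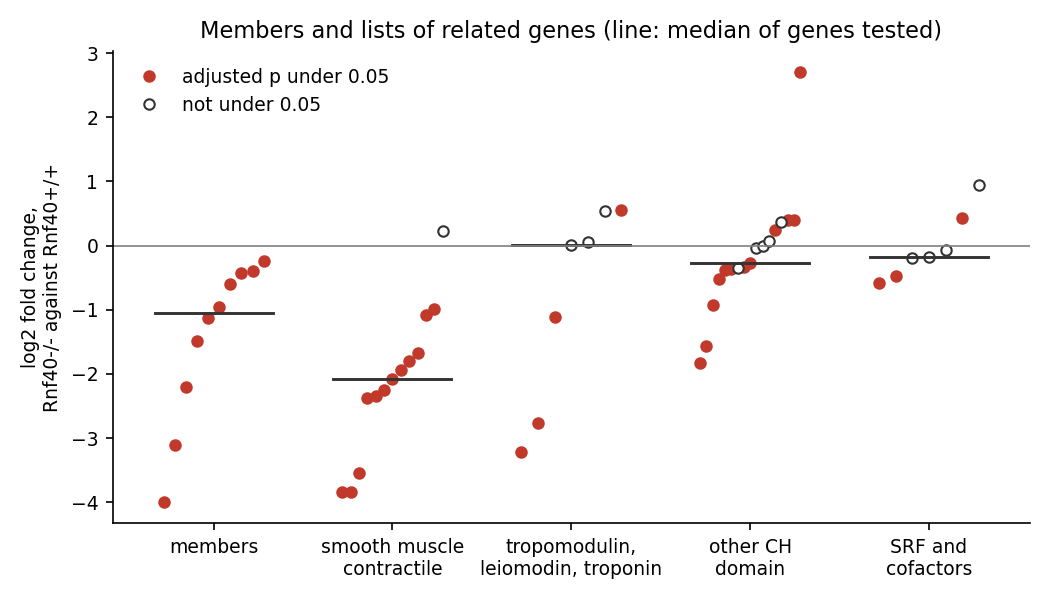
Log2 fold changes in Rnf40-/- against Rnf40+/+ MEFs of the 10 members and of the tested genes in 4 lists of related genes, filled where the adjusted p from limma is under 0.05, with a line at the median. Medians are -1.04 for the members, -2.08 for smooth muscle contractile genes, 0.015 for tropomodulins, leiomodins and troponins, -0.27 for other CH domain genes and -0.18 for SRF and its cofactors.

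Markers of cell types were counted in the same libraries. Beside the counts of calls stand the shares over all genes tested, 24.1% lower and 23.3% higher. Of 9 fibroblast genes 7 were lower and none was higher (median log2 fold change -0.75). The largest fall among them was that of Col1a2 (log2 fold change -2.26, adjusted p = 7.63e-09 from limma). The call of Vim (log2 fold change -0.26, adjusted p = 0.0483 from limma) was lost when any 1 of 5 libraries was left out (highest adjusted p = 0.176). Lum was not called with all libraries (-0.57, adjusted p = 0.185 from limma). It passed the threshold without Rnf40+/+ replicate 1 (-0.85, adjusted p = 0.0394), an omission that keeps replicate 3, its highest library. Over all omissions of 1 library, the log2 fold change of Lum ranged from -0.85 to -0.105, with a highest adjusted p of 0.738 from limma. The summed normalized count of the 9 fibroblast genes was 354316 to 413828 in Rnf40+/+ and 185357 to 199435 in Rnf40-/- libraries. Of 7 smooth muscle and pericyte genes, 5 were lower and 1, Rgs5, was called higher (log2 fold change 0.59, adjusted p = 0.0428 from limma), a call lost when any 1 of 4 libraries was left out (highest adjusted p = 0.168). Their sum was 9757 to 10672 in Rnf40+/+ and 2479.8 to 2768 in Rnf40-/- libraries. This list shares Myh11, Myocd, Lmod1 and Des with the lists above. Of 8 skeletal or cardiac muscle genes only Tnnt2 had enough reads to be tested and it was not called, and the sum of the list was 71.4 to 101 and 96.0 to 143 normalized counts. Of 8 macrophage genes 2 were higher and 2 lower among 7 tested, of which Fcer1g lost its lower call without Rnf40-/- replicate 2. The list had a summed normalized count of 5077 to 9170.0 in Rnf40+/+ and 3354 to 3689 in Rnf40-/- libraries, most of which was Lyz2. Epithelial genes summed to at most 83.6 normalized counts in any library. Endothelial genes, of which 3 of 4 were higher, and all 4 without Rnf40+/+ replicate 1, summed to 46.9 to 143 normalized counts in Rnf40+/+ and 173 to 265 in Rnf40-/- libraries. Whether shifts between cell types had a part in the falls of the members was not tested.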

How the data were processed

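Strand-specific RNA-seq libraries were aligned by the authors to mouse transcripts of mm9, and DESeq was used for normalization. The submitters' processing notes name Bowtie2 (version 2.1.0) and DESeq (version 1.14.0), and the counting tool is not given in the sources used here. The deposited values are a signal, namely read counts over the size factor of the library. Since 100% of values above 0 were multiples of the value of 1 read (tolerance 0.001), the reads could be recovered for all 3 libraries per genotype. Depth was 17053436 to 26344170 reads on genes, and intervals from limma cover the spread between libraries.

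After filterByExpr of edgeR (version 4.0.16) had removed genes with few reads, log2(normalized count + 1) was tested with limma (version 3.58.1), with a trend and genotype as the only term. Fold changes are on this scale, which understates those of genes with few reads. Adjusted p values are Benjamini-Hochberg values over 16378 genes. Paralog ratios were compared with the exact permutation test of scipy (version 1.17.1). Gene positions, transcript lengths and shared windows come from GENCODE annotation of mm9, and promoters from RefSeq on GRCm38.p6, whose coordinates cannot be set against those of mm9. Within a genotype, libraries differed by more than sampling noise (chi-square per gene from 5.31 to 28.3), so none was a duplicate.

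Members and lists were chosen with earlier results of these data known. Every member is named, and of each list the 4 genes at most with the largest absolute log2 fold change, genes without enough reads, and the 3 genes nearest in profile to each member (mean of at least 100). Further genes were named after their values were seen: Rnf40, Ddx3y, Xist, Ppp1r12b, Lyz2, Rgs5, Fcer1g, Lum, Parvb, Plec, Ehbp1, Lcp1 and Tpm3-rs7. Alternatives were scaling by upper quartiles or by DESeq2 (version 1.42.0), edgeR's quasi-likelihood test with TMM scaling on the recovered reads (3857 genes higher, 3940 lower), the Wald test of DESeq2, no filter, at least 10 reads in every library, pseudocounts of 0.1 and 10, a replicate block, the criteria of the study and each library left out in turn. The tests were tried on simulated data. The ChIP-seq experiments were not analysed here.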

Additional observations from a re-analysis of the deposited data

How the results depend on the processing

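The 10 members were lower in every alternative, and 10 of 10 kept an adjusted p under 0.05 under each alternative of scaling, test, filter and pseudocount. Leaving out 1 library at a time gave 9 to 10 members lower, the one lost being Tpm3. Without Rnf40+/+ replicate 1, the log2 fold changes of the members ranged from -3.97 for Cnn1 to -0.19 for Tpm3. By the criteria of the study 5 members were lower, as the minimum fold change takes out the others, and 5.7% of all genes tested. The differences of the 5 paralog log2 ratios kept their sign under every alternative run. The replicate numbers did not pair the libraries, with correlations of same-numbered libraries of 0.012, 0.017 and 0.021, and with a replicate block 10 members were lower, 8217 genes were called in place of 7764, and 2 genes of the tropomodulin, leiomodin and troponin list were higher in place of 1, as also without Rnf40+/+ replicate 3 and without Rnf40-/- replicate 2. With the block as pairs, the smallest exact p for a ratio is 0.25. Depth did not limit the members, which had at least 258 reads in any library. In the tropomodulin, leiomodin and troponin list, 8 genes had too few reads to be tested.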

Other observations

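Of 4 endothelial genes, 3 were higher in Rnf40-/- MEFs, all at low levels, while 23.3% of all genes tested were higher. Normalized counts of Pecam1 were 4.78, 4.08 and 2.40 in Rnf40+/+ MEFs against 28.6, 35.5 and 18.9 in Rnf40-/- MEFs, a log2 fold change of 2.58 (adjusted p = 0.000484 from limma). Cdh5, which encodes VE-cadherin, had 2.39, 5.10 and 0.80 against 31.6, 39.7 and 23.6, with a log2 fold change of 3.26 (adjusted p = 0.000295 from limma). Kdr, the receptor for VEGF, was higher as well (log2 fold change 1.56, adjusted p = 0.000705 from limma), whereas Tek was not past the threshold (1.09, adjusted p = 0.186), with 115 normalized counts in Rnf40+/+ replicate 1 and 11.2 and 16.0 in the other two Rnf40+/+ libraries. Without that library the log2 fold change of Tek was 2.09 (adjusted p = 0.000167 from limma), and all 4 genes were higher.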
